A study of Mus musculus with 6 samples.

Results

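Kit, Flt3, Il7r and Crlf2 encode surface receptors through which early blood and lymphoid progenitors receive growth signals. Their transcripts were compared between BCR-ABL transformed mouse cells carrying different Ikaros alleles. The 4 genes were chosen by name, with their RPKM values in these same libraries already known, and each was found in the deposited table. They are 4 of 22099 genes and 6 of 26531 transcript rows. Their own values are therefore given as a description without a test, and p-values are given only for other genes of their pathways.

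The data came from polyadenylated RNA of 6 cultures. In all of them, a retrovirus that carries BCR-ABL p185 and YFP was put into whole bone marrow cells of C57BL/6 mice at day 0, and the cells were grown in vitro for 14 days. The 3 groups were homozygous for the Ikaros allele ZnF4-/- (called ZnF4 mutant), homozygous for the Ikaros allele ZnF1-/- (called ZnF1 mutant), or wild type (wt), with 2 biological replicates each. BCR-ABL p185 is an oncogenic fusion tyrosine kinase. Ikaros, encoded by Ikzf1, is a DNA-binding regulator of lymphoid cells with several zinc fingers, and each mutant allele is named for the finger that is lost. The labels call the cells pro-B leukaemia cells and name no sorting step, so other marrow cells may have remained. They do not say whether the replicates of a group came from different animals, and the p-values measure only the spread between these libraries.

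Kit is the receptor tyrosine kinase for stem cell factor (Kitl) and Flt3 the related kinase for Flt3 ligand (Flt3l). Both mark early progenitors and are lost as B cell precursors mature. Il7r is the IL-7 receptor alpha chain. It pairs with the common gamma chain Il2rg to bind IL-7, or with Crlf2 to bind thymic stromal lymphopoietin (Tslp). These cytokine receptors have no kinase of their own and signal through bound JAK kinases to STAT5, which BCR-ABL also activates.

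Levels are RPKM, reads scaled to transcript length and library size, so they can be set side by side between genes. Their sum was 287007 to 345766 per library, and read depth is not stated in the sources used here. All 7 genes that define the B lineage in a fixed marker list were found, among them Cd79a, Pax5 and Ebf1. Their summed level was 3200.9 and 2101.2 RPKM in the ZnF4 mutant, 3055.8 and 2593.9 in the ZnF1 mutant, against 2753.5 and 2044.8 in wt. Granulocyte markers stood apart in ZnF1 mutant replicate 2 and wt replicate 1, where the 6 listed genes summed to 1540.1 and 502 RPKM, against 0.5 to 51.5 in the other 4 libraries.

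Ikaros is known to bind DNA at sites with the core GGGAA, so promoters are shown for Kit and Il7r, the 2 receptors with the widest differences between genotypes on the log2(RPKM + 1) scale. By ratio of means Flt3 differed more than Il7r, at 9 against 3.11 for the ZnF1 mutant over wt, but from levels near 0. The sequences are RefSeq promoters of mouse build GRCm38.p6, 250 bases before to 50 bases after the start, written 5′ to 3′ on the gene's strand. Capitals mark GGGAA on either strand. The submitters' processing notes name mm9, a different build, and no read coordinate was used with these positions.
Kit, chr5:75574737-75575036, plus strand: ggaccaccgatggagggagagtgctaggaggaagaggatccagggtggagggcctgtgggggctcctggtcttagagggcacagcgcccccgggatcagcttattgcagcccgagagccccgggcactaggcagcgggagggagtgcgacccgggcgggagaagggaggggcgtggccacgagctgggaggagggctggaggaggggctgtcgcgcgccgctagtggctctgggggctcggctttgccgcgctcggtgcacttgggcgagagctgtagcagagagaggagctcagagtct
Il7r, chr15:9529827-9530126, minus strand: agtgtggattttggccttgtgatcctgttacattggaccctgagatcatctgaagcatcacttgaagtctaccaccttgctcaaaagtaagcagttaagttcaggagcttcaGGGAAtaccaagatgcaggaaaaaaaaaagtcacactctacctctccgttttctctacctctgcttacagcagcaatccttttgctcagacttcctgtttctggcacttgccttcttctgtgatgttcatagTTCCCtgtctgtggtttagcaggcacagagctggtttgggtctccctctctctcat

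The Kit window, the first of 2 listed starts, held 0 matches to GGGAA and the Il7r window held 2. The Flt3 window held 1 match and the Crlf2 window 3, of which 1 was also a match to TGGGAA. Over 27025 promoters of the same length, 62.3% held GGGAA and 25.5% held TGGGAA on either strand. A match is a description of the letters and says nothing of binding, and a window without one says only that these letters are not there. The base composition differed, with 69% G and C for Kit, 61% for Flt3, 45.7% for Il7r and 71.7% for Crlf2.

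Kit had 16.2 and 15.4 RPKM in ZnF4 mutant replicates 1 and 2, 1 and 1.6 RPKM in the ZnF1 mutant, against 0.4 and 0.3 RPKM in wt. The 3 groups did not overlap, with the ZnF4 mutant far above both others. The mean was 15.8 ± 0.566 RPKM in the ZnF4 mutant, 1.3 ± 0.424 in the ZnF1 mutant and 0.35 ± 0.0707 in wt (SD, n = 2 each). The ratio of means was 45.1 for the ZnF4 mutant over wt and 12.2 for the ZnF4 over the ZnF1 mutant. The ZnF1 mutant stood 3.71 times above wt, a ratio of values near the rounding step of 0.1 RPKM. On the log2(RPKM + 1) scale, which understates changes of low values, the ZnF4 mutant exceeded wt by 3.64 (SE 0.18), and it exceeded the ZnF1 mutant by 2.88 (SE 0.18). The ZnF1 mutant exceeded wt by 0.76 (SE 0.18). Within replicate 1 and within replicate 2, the ZnF4 mutant exceeded wt by 3.62 and 3.66. Without ZnF1 mutant replicate 2 and wt replicate 1, the libraries rich in granulocyte markers, the difference between ZnF4 and ZnF1 mutant was 3.07. Kit reached 1 RPKM in 4 libraries, all of them mutant, and passed the filter on low values through those groups.

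**Figure D1:**
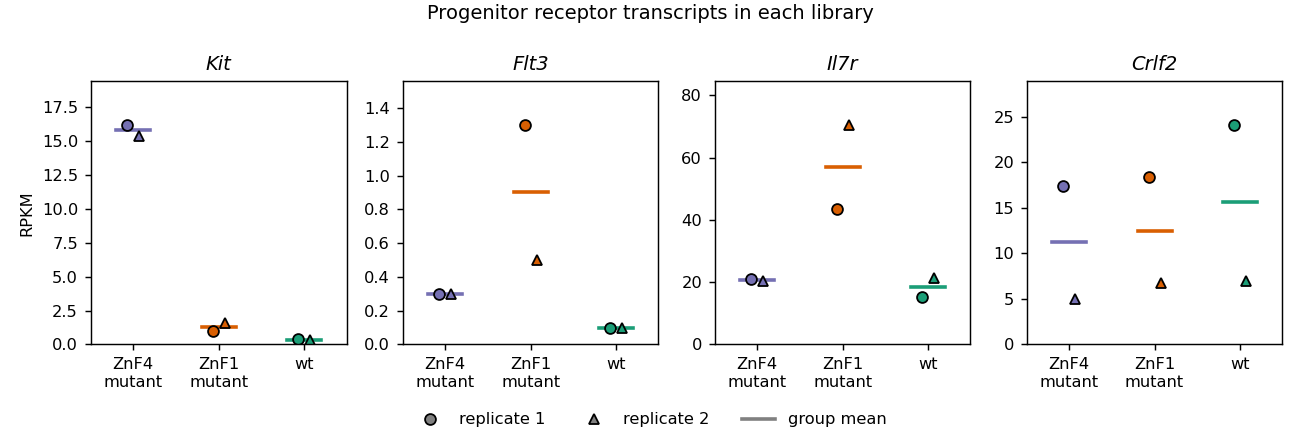
RPKM of Kit, Flt3, Il7r and Crlf2 in each of the 6 libraries, on axes that start at 0 and differ between panels. Circles are replicate 1, triangles replicate 2 and bars group means (n = 2). Kit is high in both ZnF4 mutant libraries, Il7r in both ZnF1 mutant libraries, and Crlf2 in the replicate 1 library of every group.

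The table lists Kit as a pair of transcripts that differ inside the gene by 12 bases at the end of exon 9. The insert encodes a known tetrapeptide next to the membrane on the outer side of the receptor, and both forms occur in mouse tissues. It lies at chr5:75639147-75639158 on the plus strand (GRCm38, GENCODE M21), and the junction is shown here with the insert in capitals, because it is the inner exon sequence by which the listed forms differ. The listed lengths also differ outside the inner exons, since the insert is shorter than the difference between them.
Kit with insert: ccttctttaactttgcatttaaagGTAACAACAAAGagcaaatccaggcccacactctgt
Kit without insert: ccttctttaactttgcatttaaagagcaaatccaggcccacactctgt

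The form with the insert, 5202 bases long in the table, had 15.6 and 14.8 RPKM in the ZnF4 mutant, 1 and 1.6 in the ZnF1 mutant, against 0.4 and 0.3 in wt. The form without it, 5186 bases long, was listed at 0.6 and 0.6 RPKM in the ZnF4 mutant and at 0 in the other 4 libraries. Nearly all of the Kit signal was thus assigned to the form with the insert. How reads that fit both forms were assigned is not stated in the sources used here, so the split does not measure the usage of the forms.

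Mast cells and early myeloid progenitors also express Kit, and basophil markers were read beside theirs. The 10 mast cell markers summed to 4.2 and 3.5 RPKM in the ZnF4 mutant, 0.1 and 8 in the ZnF1 mutant, against 21.8 and 0.5 in wt, and 4 of them were listed at 0 in all libraries. The 3 basophil markers summed to 2.2 and 1.5 RPKM in the ZnF4 mutant, 0.5 and 2.8 in the ZnF1 mutant, against 8.1 and 0 in wt. The 5 early myeloid progenitor markers summed to 0.2 and 1.4 RPKM in the ZnF4 mutant, 0.1 and 6.6 in the ZnF1 mutant, against 8.3 and 0 in wt. In each of these lists the highest sum was in wt replicate 1, where Kit stood at 0.4 RPKM. The part of mast cells, basophils and early myeloid progenitors in the Kit level was not tested. Of the 9 stromal and endothelial markers, the endothelial cadherin Cdh5 was high in the same group as Kit, at 2.1 and 1.3 RPKM in the ZnF4 mutant, 0.1 and 0.1 in the ZnF1 mutant, against 0 and 0 in wt. The endothelial markers Pecam1 and Kdr were highest in the ZnF1 mutant, at 25.8 and 22.4 RPKM and at 1.5 and 1.6 RPKM. The part of endothelial cells in the Kit level was not tested.

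Among all tested genes, the 5 whose profile over the 6 libraries lay closest to that of Kit were Dock1, Hs3st2, Lmo1, Kcnma1 and Hoxb7. Closeness was the root mean square difference between profiles of log2(RPKM + 1), each centred on its own mean, and was 0.206 for Dock1 and 0.341 for Hoxb7. Dock1, an activator of the GTPase Rac, stood at 12.7 and 13 RPKM in the ZnF4 mutant, 1.3 and 1.5 in the ZnF1 mutant, against 0.5 and 0.5 in wt. Lmo1, a LIM domain regulator known as an oncogene in T cell leukaemia, stood at 16.4 and 7.8 RPKM in the ZnF4 mutant, 0.3 and 0.8 in the ZnF1 mutant, against 0.1 and 0.1 in wt. All 5 were above 7 RPKM in both ZnF4 mutant libraries and at or below 2.1 RPKM in the other 4.

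Il7r had 21.1 and 20.3 RPKM in the ZnF4 mutant, 43.5 and 70.5 RPKM in the ZnF1 mutant, against 15.3 and 21.3 RPKM in wt. The ZnF1 mutant libraries were above all others, while the ZnF4 mutant and wt overlapped. The mean was 20.7 ± 0.566 RPKM in the ZnF4 mutant, 57 ± 19.1 in the ZnF1 mutant and 18.3 ± 4.24 in wt (SD, n = 2 each). The ZnF1 mutant exceeded wt 3.11-fold by the ratio of means and by 1.57 on the log2(RPKM + 1) scale (SE 0.29). The ratio was 2.84 within replicate 1 and 3.31 within replicate 2. The difference between the ZnF4 mutant and wt was 0.19 on the log2 scale (SE 0.29), less than its SE, and its sign was opposite within the replicates, at 0.44 and −0.07. Without wt replicate 1 it was −0.04. The difference between the ZnF4 and ZnF1 mutant was −1.38 (SE 0.29).

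The higher Il7r level of the ZnF1 mutant stood beside higher macrophage transcripts. The 7 macrophage markers summed to 264.3 and 285.9 RPKM in the ZnF4 mutant, 678.5 and 776.1 in the ZnF1 mutant, against 233.5 and 294 in wt. The profile closest to Il7r was that of Emr1, a macrophage surface receptor, at 7.6 and 8.9 RPKM in the ZnF4 mutant, 19.8 and 24.6 in the ZnF1 mutant, against 6.8 and 9.3 in wt (distance 0.159). Next came Ahnak, Mgp, Arhgap24 and Igsf6, with distances of 0.178 to 0.201. Stromal and endothelial markers summed to 40.5 and 30.5 RPKM in the ZnF4 mutant, 190.2 and 83.3 in the ZnF1 mutant, against 54.9 and 49.4 in wt. In a bulk culture, more cells of a type and more RNA per cell cannot be told apart, and the part of these cells in the Il7r level was not tested. T, NK and innate lymphoid cells also express Il7r. Of their 11 markers, 10 were under 1 RPKM in every library and 6 were listed at 0, and the sums were 0.4 and 0.4 RPKM in the ZnF4 mutant, 2.5 and 3.1 in the ZnF1 mutant, against 1.3 and 0.7 in wt. Cd4 was the only one of them to reach 1 RPKM, at 1.7 and 2 RPKM in the ZnF1 mutant.

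Crlf2 had 17.4 and 5 RPKM in the ZnF4 mutant, 18.4 and 6.7 RPKM in the ZnF1 mutant, against 24.1 and 7 RPKM in wt. The groups overlapped, and in each the replicate 1 library was the higher. The ratio of replicate 1 to replicate 2 was 3.48 in the ZnF4 mutant, 2.75 in the ZnF1 mutant and 3.44 in wt, larger than any ratio between genotypes. Within replicate numbers, the ZnF4 mutant stood at 0.722 and 0.714 of wt, and the ZnF1 mutant at 0.763 and 0.957 of wt. The log2 difference from wt was −0.43 in the ZnF4 mutant and −0.21 in the ZnF1 mutant, each with an SE of 0.83, and −0.22 for the ZnF4 against the ZnF1 mutant. Within replicate 1 and replicate 2, the log2 difference was −0.45 and −0.42 for the ZnF4 mutant against wt, −0.37 and −0.06 for the ZnF1 mutant against wt, and −0.08 and −0.36 for the ZnF4 against the ZnF1 mutant. Leaving out 1 library of a compared pair of groups unbalances the replicate numbers, and the unpaired value then carries the replicate difference, with either sign, so it is no measure of the genotypes. Blocking on the replicate number gave an SE of 0.104. Of the transcripts listed for Crlf2, the longer (1368 bases) carried most of the signal, with 16.4 and 5 RPKM in the ZnF4 mutant, 17.4 and 6.5 in the ZnF1 mutant, against 22.7 and 6.9 in wt.

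Among the 11345 genes tested, 44.3% were higher in replicate 1 in all 3 groups and 26.9% were higher in replicate 2 in all 3 groups. A log2 difference of at least 1 in all 3 groups was found for 1.33%, or 151 genes, Crlf2 among them. Crlf2 ranked 66th of all genes by its mean difference of 1.53. The genes with profiles closest to Crlf2 were Rps19, Bmyc, Rbm38, Pdlim1 and Gabarapl2, with distances of 0.118 to 0.181. Rps19, a ribosomal protein gene, had 27.9 and 8.2 RPKM in the ZnF4 mutant, 32.7 and 9.4 in the ZnF1 mutant, against 38.2 and 10.2 in wt. Of the related chains, Il3ra and Il2rg were higher in replicate 1 in every group, while Il7r was not. Il3ra, the IL-3 receptor alpha chain, differed by 1.41 in the ZnF4 mutant, 1.15 in the ZnF1 mutant and 1.31 in wt. Il2rg differed by 0.58, 0.68 and 0.5 in the same order of groups, and Il7r by 0.05, −0.68 and −0.45. The labels give the replicate number no further meaning, and what the numbers share was not tested.

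**Figure D2:**
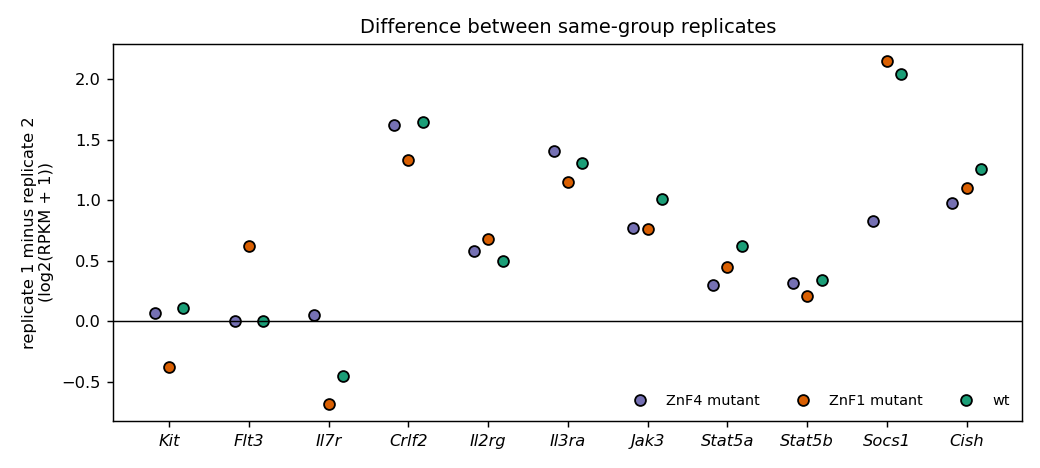
Difference between replicate 1 and replicate 2 of the same group, in log2(RPKM + 1), for the 4 receptors and for partner chains, JAK and STAT genes and STAT5 targets. Each point is 1 group. Crlf2 lies between 1.33 and 1.65 in all groups, while Kit, Flt3 and Il7r lie between −0.68 and 0.62.

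Flt3 was barely detected, with 0.3 and 0.3 RPKM in the ZnF4 mutant, 1.3 and 0.5 RPKM in the ZnF1 mutant, against 0.1 and 0.1 RPKM in wt. The order of groups was the ZnF1 mutant, the ZnF4 mutant and wt, without overlap, but all values except 1 were under 1 RPKM. The wt and ZnF4 mutant values are within 3 rounding steps of 0. Flt3 reached 1 RPKM in 1 library and was not in the table of tested genes. The annotation places an antisense gene, Gm26597, over Flt3, and whether reads were counted by strand is not stated in the sources used here. The 5 profiles closest to Flt3 were those of Ppap2a, Abcc1, Rbfox2, Wipi1 and Ctbp2, with distances of 0.048 to 0.092. Dendritic cells, which use Flt3 and can use Crlf2, had 6 of 7 markers under 1 RPKM in every library.

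In the ZnF4 mutant, Kit stood below Il7r, at means of 15.8 and 20.7 RPKM, and ranked 6th of 38 receptor genes of the class III kinase and type I cytokine receptor families. It ranked 23rd in the ZnF1 mutant and 26th in wt. Il7r ranked 4th in the ZnF4 mutant, 3rd in the ZnF1 mutant and 6th in wt, and Crlf2 8th, 11th and 7th. In the ZnF4 mutant Kit was below Crlf2 within replicate 1, at 16.2 and 17.4 RPKM, and above it within replicate 2, at 15.4 and 5. The order of Kit and Crlf2 thus changed with the replicate number, by which Crlf2 differed in every group. In wt Il7r was likewise below Crlf2 within replicate 1 (15.3 and 24.1) and above it within replicate 2 (21.3 and 7). Kit and Flt3 were far below both in wt.

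**Figure D3:**
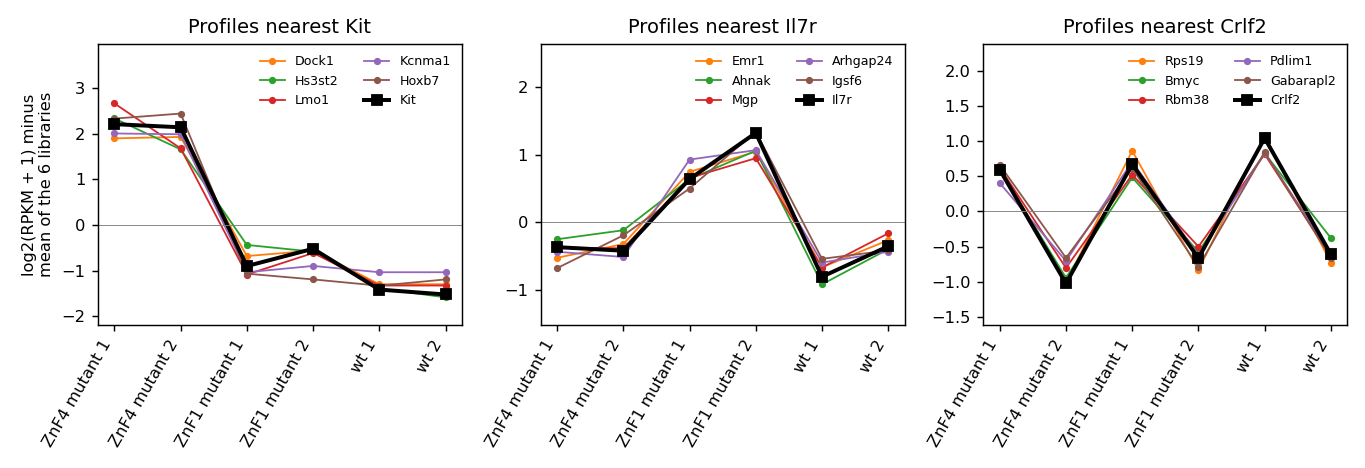
Profiles of Kit, Il7r and Crlf2 (black) and of the 5 genes closest to each (coloured), as log2(RPKM + 1) minus the mean of the 6 libraries. The lines join values of a gene to guide the eye and carry no order of libraries. Kit and its neighbours are high in both ZnF4 mutant libraries, Il7r and its neighbours in both ZnF1 mutant libraries, and Crlf2 and its neighbours in all replicate 1 libraries.

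Pathway lists of 179 genes besides the 4 receptors were then read from a fit of all genes, limma on log2(RPKM + 1) with Benjamini-Hochberg adjustment and a threshold of 0.05. Of the 179, 147 passed the filter of 1 RPKM in 2 libraries. In the ZnF4 mutant against wt, 3 of the 147 rose and 10 fell, beside 1.43% rising and 1.3% falling of all genes. Under a block on replicate number, 10 were higher and 40 lower, beside 8.02% and 7.92% of all genes. Their median log2 difference was −0.14, against 0.04 over all genes. In the ZnF4 against the ZnF1 mutant, 3 rose and 20 fell, beside 1.61% and 3.75% of all genes, or 9 and 72 with the block, beside 15.9% and 19.2%. In the ZnF1 mutant against wt, 0 rose and 0 fell (0% of all genes). An unadjusted limma p under 0.05 was found for 34 of the 147, beside 1281 of all 11345 genes tested. With the block 34 were higher and 6 lower there, beside 10.4% and 2.88% of all genes. The comparisons share libraries and are not independent. Leaving out any 1 of the 6 libraries gave 0 to 4 called members in place of 13 in the ZnF4 mutant against wt, and 0 to 10 in place of 23 against the ZnF1 mutant, with fewer residual degrees of freedom. Without ZnF1 mutant replicate 2 and wt replicate 1 together, only 1 library is left in both of those groups. The calls of that fit cannot show a dependence on these libraries.

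The ligands were low. Kitl, the Kit ligand, had 0.3 and 0.9 RPKM in the ZnF4 mutant, 1 and 1.3 in the ZnF1 mutant, against 0.3 and 0.4 in wt. Flt3l had 2 and 1.2 RPKM in the ZnF4 mutant, 5.1 and 3.5 in the ZnF1 mutant, against 4.2 and 2.4 in wt. For Flt3l the ZnF4 mutant lay below both other groups, by −0.71 against wt (limma adjusted p = 0.48, or 0.011 with the replicate block). Il7 was at 0.1 to 0.3 RPKM in all 6 libraries, and Tslp reached 0.1 RPKM in only 1. The partner chain Il2rg was abundant, with 81.3 and 54.1 RPKM in the ZnF4 mutant, 133.1 and 82.5 in the ZnF1 mutant, against 98.8 and 69.4 in wt. Its difference from wt was −0.32 in the ZnF4 mutant and 0.34 in the ZnF1 mutant (limma adjusted p = 1 for each). The difference between the ZnF4 and ZnF1 mutant was −0.65 (limma adjusted p = 0.41, or 0.005 with the block).

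In the list of 27 genes of Kit and Flt3 signalling, 0 rose and 0 fell in the ZnF4 mutant against wt. Over all genes, 1.43% rose and 1.3% fell. With the block 2 were higher and 1 lower, beside 8.02% and 7.92% of all genes. The higher pair was Fes, a cytoplasmic tyrosine kinase, and Gab1, a docking adaptor. Fes stood at 18.1 ± 3.68 RPKM in the ZnF4 mutant against 8.35 ± 2.62 in wt (SD, n = 2 each; limma adjusted p = 0.18, or 0.0029 with the block). In the ZnF4 against the ZnF1 mutant, 3 fell, where 3.75% of all genes fell. Among the 3 was the kinase Lyn (−0.9, limma adjusted p = 0.032). Another was the lipid kinase subunit Pik3cb, with 0.4 and 0.6 RPKM in the ZnF4 mutant, 1.5 and 1.7 in the ZnF1 mutant, against 0.6 and 0.5 in wt. It passed the filter on low values only through the ZnF1 mutant, so its call is no support for a difference, and its ZnF4 mutant and wt values overlapped. Lyn stood at 26.3 and 24.5 RPKM in the ZnF4 mutant, 46.4 and 49.8 in the ZnF1 mutant, against 26.6 and 27.5 in wt, so that the ZnF1 mutant was the group that stood apart. Lyn is also expressed by macrophages, whose marker sums are given above, and their part in these values was not tested.

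Negative regulators of Kit and Flt3 moved in both directions. Of 17 tested, 2 rose and 1 fell in the ZnF4 mutant against wt, beside 1.43% and 1.3% of all genes. The block gave 4 and 3, beside 8.02% and 7.92%. Sh2b2, an adaptor that recruits the ubiquitin ligase Cbl, stood at 10.1 and 5.8 RPKM in the ZnF4 mutant, 1.5 and 1.1 in the ZnF1 mutant, against 0.9 and 0.4 in wt. It rose by 2.41 on the log2 scale in the ZnF4 mutant against wt (SE 0.3, limma adjusted p = 0.025) and by 1.92 against the ZnF1 mutant (adjusted p = 0.032). Grb10, an adaptor that binds activated receptors, stood at 15.2 and 16.6 RPKM in the ZnF4 mutant, 7.4 and 6.5 in the ZnF1 mutant, against 4.1 and 4.3 in wt. It rose by 1.7 (SE 0.15, limma adjusted p = 0.012) against wt and by 1.09 (adjusted p = 0.027) against the ZnF1 mutant.

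Sla, an adaptor that promotes receptor turnover, fell in the ZnF4 mutant to 9.15 ± 0.212 RPKM, against 22.1 ± 2.26 in wt (SD, n = 2 each; limma adjusted p = 0.032). Dok2, a docking protein that restrains kinase signals, had 4.8 and 4.1 RPKM in the ZnF4 mutant, 19.7 and 19 in the ZnF1 mutant, against 10 and 5 in wt. Its level was lower in the ZnF4 than in the ZnF1 mutant by the test (−1.9, limma adjusted p = 0.034), while the ZnF4 mutant against wt did not pass (−0.58, adjusted p = 0.65, or 0.14 with the block). The ZnF1 mutant against wt was at 1.33 (limma adjusted p = 0.16, or 0.022 with the block). Socs1, an inhibitor of JAK kinases and of Kit, had 3.1 and 1.3 RPKM in the ZnF4 mutant, 51.8 and 10.9 in the ZnF1 mutant, against 32.4 and 7.1 in wt. Within each replicate number the ZnF4 mutant was the lowest of the 3 groups for Socs1 (log2 difference from wt −2.42, limma adjusted p = 0.42, or 0.011 with the block). The ZnF4 mutant thus had a lower Socs1 value beside a higher Sh2b2 and Grb10.

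For the JAK and STAT genes that serve Il7r and Crlf2, 0 of 9 passed in the ZnF4 mutant against wt. Over all genes, 1.43% rose and 1.3% fell. With the block 0 were higher and 4 lower, beside 8.02% and 7.92% of all genes. All 9 differences were below 0, with a median of −0.31. Of all genes, 56.8% were above 0, with a median of 0.04. Jak3, the kinase bound to Il2rg, stood at 16.1 and 9 RPKM in the ZnF4 mutant, 29 and 16.7 in the ZnF1 mutant, against 34.6 and 16.7 in wt (−0.94 against wt, limma adjusted p = 0.61, or 0.0042 with the block). Stat5a stood at 7.4 and 5.8 RPKM in the ZnF4 mutant, 12.4 and 8.8 in the ZnF1 mutant, against 14.8 and 9.3 in wt (−0.76 against wt, adjusted p = 0.4 with limma, or 0.0096 with the block). Stat5b was at −0.46 (limma adjusted p = 0.53, or 0.018 with the block), and Stat3 was the fourth. Jak1, the kinase bound to Il7r, had 63.3 and 70.7 RPKM in the ZnF4 mutant, 68.6 and 67.9 in the ZnF1 mutant, against 70.2 and 79.2 in wt. Jak2, the kinase of Crlf2, had 9 and 12.5 RPKM in the ZnF4 mutant, 12 and 17.1 in the ZnF1 mutant, against 10.4 and 15 in wt. Against wt, the log2 differences were −0.15 for Jak1 and −0.22 for Jak2 in the ZnF4 mutant, and −0.13 and 0.18 in the ZnF1 mutant. None of these 4 passed with limma, with or without the block.

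Of 18 regulators and targets of Il7r signalling, 1 fell in the ZnF4 mutant against wt, beside 1.3% of all genes. Against the ZnF1 mutant 2 fell, beside 3.75%. With the block 7 and 12 were lower in these comparisons, beside 7.92% and 19.2%, and none rose in either fit. The survival gene Bcl2 stood at 5.5 and 4.1 RPKM in the ZnF4 mutant, 14 and 10.9 in the ZnF1 mutant, against 15.9 and 13.6 in wt. It fell by 1.45 on the log2 scale against wt (SE 0.21, limma adjusted p = 0.037) and by 1.21 against the ZnF1 mutant (adjusted p = 0.041). The kinase gene Pim1, a STAT5 target, had 70.7 and 47.9 RPKM in the ZnF4 mutant, 233.4 and 171.8 in the ZnF1 mutant, against 162.4 and 105.6 in wt. It fell by 1.77 against the ZnF1 mutant (limma adjusted p = 0.045), and its value against wt was −1.16 (adjusted p = 0.2, or 0.0017 with the block). In the ZnF1 mutant against wt, 5 members were higher with the block only, where 10.4% of all genes were higher. Among the 5 were Socs3, Bcl2l1 and the death gene Bcl2l11. Socs3 had 67.8 and 36 RPKM in the ZnF1 mutant, against 26.8 and 9.3 in wt (1.58, limma adjusted p = 0.39, or 0.01 with the block).

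**Figure D4:**
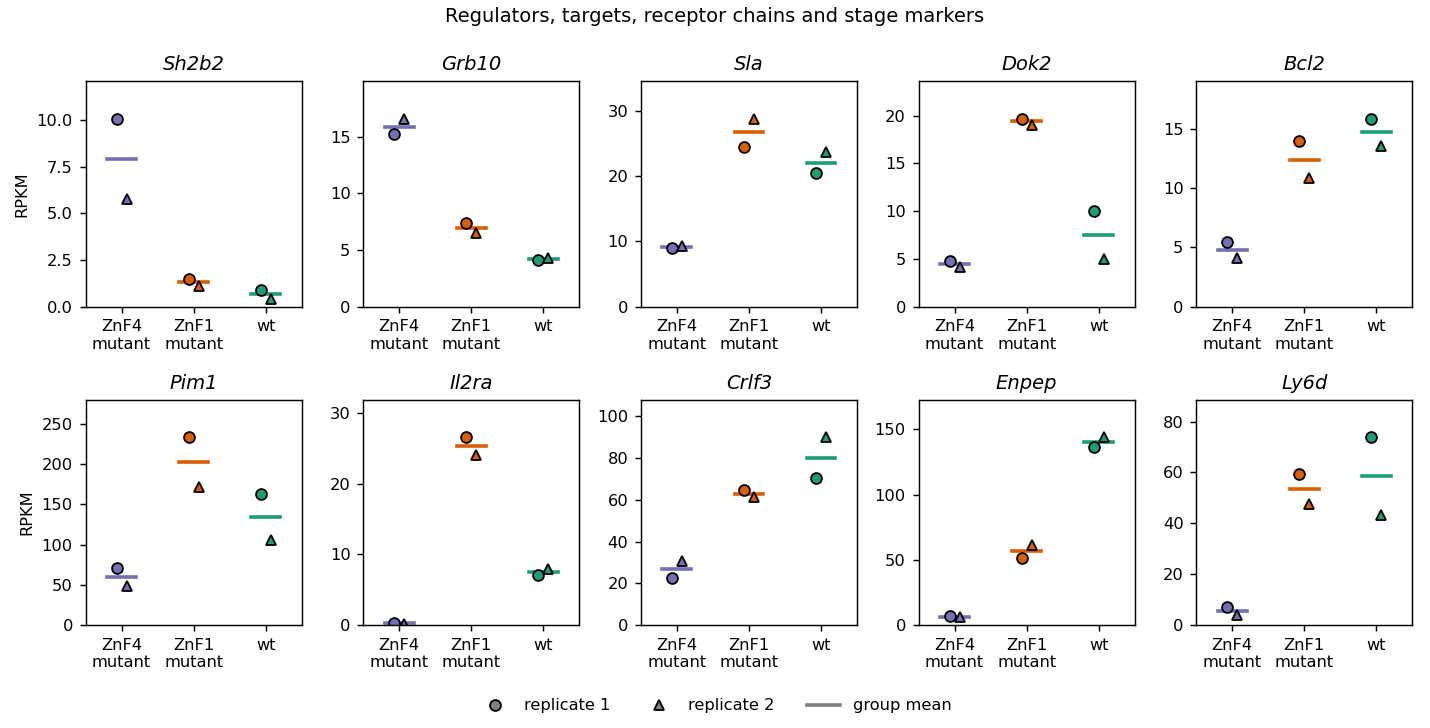
RPKM of regulators of Kit and Flt3 (Sh2b2, Grb10, Sla, Dok2), targets of Il7r signalling (Bcl2, Pim1), receptor chains (Il2ra, Crlf3) and stage markers (Enpep, Ly6d) in each library, on axes that start at 0. Circles are replicate 1, triangles replicate 2 and bars group means (n = 2). Sh2b2 and Grb10 are highest in the ZnF4 mutant, and the other 8 genes are lowest there.

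Calls among transcription factors known to act at these receptor genes are given beside the shares over all genes. Of 13 tested that are known at Kit or Flt3, 0 passed in the ZnF4 mutant against wt. Over all genes, 1.43% rose and 1.3% fell. With the block 1 was higher and 4 lower, beside 8.02% and 7.92% of all genes. Against the ZnF1 mutant 2 were called lower, where 3.75% of all genes fell. Among the 2 was Meis1, a homeobox gene of progenitors, lower by 1.48. Meis1 had 0.2 and 0.2 RPKM in the ZnF4 mutant, 2.6 and 2.1 in the ZnF1 mutant, against 1.2 and 0.8 in wt. It passed the filter on low values only through the ZnF1 mutant, so its call is no support for a difference. Gata2, an activator of Kit in mast cells and progenitors, stood at 0.3 and 0.1 RPKM in the ZnF4 mutant, 0.2 and 0.5 in the ZnF1 mutant, against 1.5 and 0 in wt. Myb, which is known to act at Kit, stood at 80.8 and 78.3 RPKM in the ZnF4 mutant, 76.6 and 79 in the ZnF1 mutant, against 102 and 116.4 in wt (ZnF4 mutant against wt −0.45, limma adjusted p = 0.3, or 0.028 with the block).

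Among 26 tested factors known at Il7r or of early lymphoid cells, 1 rose and 0 fell in the ZnF4 mutant against wt. Over all genes, 1.43% rose and 1.3% fell. With the block 2 were higher and 6 lower, beside 8.02% and 7.92% of all genes. The gene that rose was Ikzf1 itself, with 188.2 and 170.2 RPKM in the ZnF4 mutant, 101.5 and 116.7 in the ZnF1 mutant, against 89.2 and 85.9 in wt (limma adjusted p = 0.045 against wt). A level summed over the gene cannot show the loss of a single finger. Ets1 was lower in both mutants with the block only, at 51 and 43.2 RPKM in the ZnF4 mutant, 53.3 and 44.8 in the ZnF1 mutant, against 84.6 and 74.5 in wt. Its limma adjusted p against wt was 0.0036 in the ZnF4 mutant and 0.0081 in the ZnF1 mutant with the block, and 0.14 and 0.19 without it. Foxo1, an activator of Il7r, had 74.9 and 61 RPKM in the ZnF4 mutant, 67.8 and 62.4 in the ZnF1 mutant, against 60.5 and 59.1 in wt.

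Of the other class III kinases, Csf1r, the macrophage growth factor receptor, had 17.5 and 14.2 RPKM in the ZnF4 mutant, 36.9 and 32.9 in the ZnF1 mutant, against 13.5 and 12.6 in wt. It fell by 1.1 in the ZnF4 against the ZnF1 mutant (SE 0.17, limma adjusted p = 0.032). Pdgfra was at 0.3 to 2.1 RPKM in the 6 libraries, did not pass the filter on low values and was not tested. Pdgfrb stood at 0.7 and 0.4 RPKM in the ZnF4 mutant, 2.6 and 1.2 in the ZnF1 mutant, against 0.5 and 0.4 in wt. It passed the filter on low values only through the ZnF1 mutant, so no p is given.

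In the type I cytokine receptor list, which held 31 chains besides Il7r and Crlf2, 17 were tested. In the ZnF4 mutant against wt 0 rose and 3 fell, beside 1.43% and 1.3% of all genes. The block gave 0 and 7 there, beside 8.02% and 7.92%. Against the ZnF1 mutant 0 rose and 3 fell, beside 1.61% and 3.75% of all genes. The block gave 0 and 13 there, beside 15.9% and 19.2%. Il2ra, the IL-2 receptor alpha chain, stood at 0.3 and 0.2 RPKM in the ZnF4 mutant, 26.6 and 24 in the ZnF1 mutant, against 7.1 and 8 in wt. It fell by 2.77 against wt (SE 0.16, limma adjusted p = 0.0065) and fell by 4.39 against the ZnF1 mutant (adjusted p = 0.0031). Crlf3, another family member, fell to 26.7 ± 5.94 RPKM in the ZnF4 mutant, against 80.3 ± 13.8 in wt (SD, n = 2 each; limma adjusted p = 0.034). Osmr, the oncostatin M receptor, had 0.3 and 0.5 RPKM in the ZnF4 mutant, 1.6 and 1.6 in the ZnF1 mutant, against 0.4 and 0.7 in wt. It is counted among the falls against the ZnF1 mutant but passed the filter only through that group, which is no support for a difference, and its ZnF4 mutant and wt values overlapped. The beta chain Csf2rb stood at 15.7 ± 1.84 RPKM in the ZnF4 mutant, 51 ± 20.2 in the ZnF1 mutant and 35 ± 11.7 in wt (ZnF4 mutant against wt, limma adjusted p = 0.3, or 0.011 with the block).

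Early progenitor surface genes were read beside the higher Kit level of the ZnF4 mutant. Of 8 tested, 0 rose and 1 fell against wt, beside 1.43% and 1.3% of all genes. The block gave 0 and 4, beside 8.02% and 7.92%. Ly6d, a surface gene of B-committed lymphoid progenitors, fell to 5.5 ± 2.12 RPKM in the ZnF4 mutant, against 58.5 ± 21.8 in wt (SD, n = 2 each; limma adjusted p = 0.021). Against the ZnF1 mutant 4 were called lower, where 3.75% of all genes fell. Among the 4 were Ly6d (−3.1, limma adjusted p = 0.019), Cd44 (−1.1, adjusted p = 0.027) and the myeloid lectin Cd33 (−2.58). Cd33 had 0.7 and 0.8 RPKM in the ZnF4 mutant, 6.9 and 12.9 in the ZnF1 mutant, against 1.6 and 0.8 in wt. It passed the filter on low values only through the ZnF1 mutant, so its call is no support for a difference. For Cd33 the ZnF4 mutant against wt did not pass (−0.31, limma adjusted p = 1). Cd44 had 26.4 and 24.7 RPKM in the ZnF4 mutant, 58.4 and 53.2 in the ZnF1 mutant, against 35.3 and 30.8 in wt. The macrophage markers given beside Il7r, at 264.3 and 285.9 RPKM in the ZnF4 mutant and 678.5 and 776.1 in the ZnF1 mutant, were higher in the same libraries, and their part in these values was not tested. Cd34, a marker of stem and early progenitor cells, was at 0.7 RPKM or less in all 6 libraries.

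Pre-B stage surface genes gave 0 rises and 5 falls of 10 tested in the ZnF4 mutant against wt. Over all genes, 1.43% rose and 1.3% fell. With the block 1 was higher and 5 lower, beside 8.02% and 7.92% of all genes. Enpep, the BP-1 antigen, stood at 7 and 6 RPKM in the ZnF4 mutant, 51.1 and 61.7 in the ZnF1 mutant, against 136.7 and 144 in wt. It fell by 4.24 against wt (SE 0.17, limma adjusted p = 0.0039) and fell by 2.93 against the ZnF1 mutant (adjusted p = 0.0075). Cd2, an adhesion receptor, stood at 10.2 and 6 RPKM in the ZnF4 mutant, against 55.3 and 56.2 in wt (limma adjusted p = 0.014). Bst1, the BP-3 antigen, stood at 16.8 and 22.3 RPKM in the ZnF4 mutant, against 89.7 and 87.5 in wt (adjusted p = 0.0094 with limma). Il2ra, given above, and Cd72 completed the falls. Cd22, an inhibitory receptor, rose by 2.02 in the ZnF4 against the ZnF1 mutant (limma adjusted p = 0.028). It had 18 and 11.4 RPKM in the ZnF4 mutant, 2.1 and 3.6 in the ZnF1 mutant, against 5.7 and 6.3 in wt. For Cd22 the ZnF4 mutant against wt did not pass (1.13, limma adjusted p = 0.17, or 0.054 with the block).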

How the data were processed

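RNA was measured in 6 libraries, 2 in each of 3 groups. The deposited values are RPKM per RefSeq transcript, per the file headers, rounded by the authors to 1 decimal. TopHat, bedtools and mouse build mm9 are named, without versions, per the submitters' processing notes. The rule for shared reads and the use of strand are not stated in the sources used here, and without counts no counting interval is given. Rows were summed by symbol, 39 of 40 symbols stored as dates or numbers were recovered from their RefSeq transcript, and 1 row without a gene was left out. For 3 list genes the older symbol of the table was used.

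Genes with at least 1 RPKM in 2 libraries (11345) were tested across all genes in R 4.3.3 by limma 3.58.1, its prior variance following mean intensity, after taking log2(RPKM + 1), 1 fit of 3 group means, two-sided, with Benjamini-Hochberg adjustment. The script was tested on simulated data. Replicate numbers 1 and 2 recur in every group. Across genes, libraries with the same number deviated from their group means together, with correlations of 0.715 (ZnF4 and ZnF1 mutant), 0.754 (ZnF4 mutant and wt) and 0.5 (ZnF1 mutant and wt). The numbers were therefore read as a possible pairing of the libraries, by this hint from the data and not by the labels. The values with the block rest on this reading, and what the numbers share was not tested. A fit that blocks on replicate number is given beside calls that it changes. The receptors and gene lists were chosen with earlier results of these data known. Named were the 4 receptors, their ligands and partners, JAK and STAT5 genes, the other class III kinases, Ikzf1, up to 8 called members of each list by size of difference, the 5 closest profiles, and markers beside results they move with. Il3ra, Stat3, Fes, Gab1, Socs1, Socs3, Bcl2l1, Bcl2l11, Csf2rb, Myb, Ets1, Foxo1, Gata2 and Cd34 were named after their values were seen. Some genes that the rule names are not reported here.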

Additional observations from a re-analysis of the deposited data

How the results depend on the processing

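Without read counts, depth limits are unknown, and Flt3 and Kit in wt lie within a few rounding steps of 0. The same results were recomputed under other settings, and the cause of each change was not tested. The genes called numbered 309 in the ZnF4 mutant against wt, 609 in the ZnF4 against the ZnF1 mutant and 0 in the ZnF1 mutant against wt. With the replicate block they numbered 1809, 3979 and 1502 in that order of comparisons, and pathway members 50, 81 and 40. A filter of 5 RPKM gave 176 genes and 323 genes. Fits of only the 4 libraries compared gave 86 and 234 genes, with 3 and 10 pathway members. Leaving out 1 library gave 0 to 88 and 0 to 262 genes, with 0 to 4 and 0 to 10 pathway members, and 0 to 0 of each in the ZnF1 mutant against wt. The fit without ZnF1 mutant replicate 2 and wt replicate 1 together, chosen after seeing the data, left only 1 library in both of those groups. Its calls cannot show a dependence on these libraries, and only its log2 differences are given below.

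For Kit, a pseudocount of 0.1 or 0.5 gave log2 differences of 5.15 and 4.26 in the ZnF4 mutant against wt, 3.54 and 3.2 between ZnF4 and ZnF1 mutant, and 1.61 and 1.06 in the ZnF1 mutant against wt. Leaving out 1 library gave 3.58 to 3.69, 2.69 to 3.07 and 0.57 to 0.95. For Flt3, pseudocount 0.1 gave 1 in the ZnF4 mutant against wt, −1.2 in the ZnF4 against the ZnF1 mutant and 2.2 in the ZnF1 mutant against wt, and 0.5 gave 1.16 in the last. Leaving out 1 library gave −0.82 to −0.21 in the second and 0.45 to 1.06 in the third. For Il7r, leaving out 1 library gave −0.04 to 0.41 in the ZnF4 mutant against wt, −1.72 to −1.04 in the ZnF4 against the ZnF1 mutant and 1.22 to 1.91 in the ZnF1 mutant against wt. For Crlf2 the ranges were −1.26 to 0.39, −1.03 to 0.59 and −1.04 to 0.61, where leaving out a library unbalances the replicate numbers and the replicate difference sets the sign. Without the pair of granulocyte-rich libraries, the values were 3.07 (Kit), −0.82 (Flt3) and −1.04 (Il7r) in the ZnF4 against the ZnF1 mutant. In the ZnF1 mutant against wt they were 1.06 (Flt3), 1 (Il7r) and 1.28 (Crlf2), and in the ZnF4 mutant against wt −0.04 (Il7r) and 0.39 (Crlf2). Leaving out this pair also unbalances the replicate numbers, so these values carry the replicate difference too.

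Named pathway genes past the threshold missed it 13 times without the filter on low values, 23 times in fits of the 4 libraries compared and 24 to 36 times for each library left out, while 14 newly passed it with the block, and none of these turned sign. Uncalled genes turned sign when 1 library was left out. A library missing from a compared group unbalances the replicate numbers, so these unpaired values also carry the replicate difference. From replicate 2 to replicate 1, Jak3 differed by 0.77 in the ZnF4 mutant, 0.76 in the ZnF1 mutant and 1.01 in wt. In the ZnF1 mutant against wt, the ranges were −0.01 to 0.68 for Il2rg, −0.06 to 0.43 for Jak2, −0.63 to 0.38 for Jak3 and −0.46 to 0.15 for Stat5a. Without the granulocyte-rich pair, ZnF1 mutant replicate 1 stood against wt replicate 2, and Jak2 was −0.3, Jak3 0.76 and Stat5a 0.38. In the ZnF4 mutant against wt, the ranges were −0.05 to 0.49 for Kitl, −0.46 to 0.03 for Jak2 and −0.05 to 0.23 for Pdgfrb. In the ZnF4 against the ZnF1 mutant, Jak1 ranged from −0.11 to 0.05.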
